A study of Mus musculus with 12 samples.

Results

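Myc and 32 genes of ribosome biogenesis were followed across 4 sorted populations of mouse bone marrow progenitors. The members are a list of gene symbols, and each was read from the probe set (a set of short array probes for 1 transcript) that varied most over the 12 arrays, by SD, among those annotated with that symbol alone. Of 33 listed genes 32 were measured, by 64 probe sets, out of 18193 genes and 45037 probe sets in all. Mrto4 was not read, because its probe set carries several symbols.

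The cells came from female C57BL/6 mice aged 4 to 6 weeks, with no genetic change or treatment named in the labels. All 4 populations were sorted as lineage-negative, CD117+ and Sca-1-, with 3 arrays each and RNA of 80000 cells per population. Common myeloid progenitors (CMP) were sorted as CD34+ and CD16/32-, and were split into CD27+ CMP and CD27- CMP. Granulocyte-monocyte progenitors (GMP) carried CD34, CD16/32 and CD27, and megakaryocyte-erythrocyte progenitors (MEP) carried none of these. CD27 was thus present on CD27+ CMP and GMP and absent from CD27- CMP and MEP. The labels call the arrays biological replicates without saying whether each came from its own animals, so the p-values measure the spread between these arrays. The samples are bulk populations, in which fewer cells of a type and less RNA per cell cannot be told apart.

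Myc is a transcription factor that pairs with Max, binds the DNA motif CACGTG (the E-box) and is known for raising genes of growth and ribosome production. Ribosomes are built in the nucleolus. RNA polymerase I makes a long precursor RNA, small nucleolar ribonucleoproteins modify it, the small subunit processome and the large subunit assembly factors fold and cut it, and both subunits leave the nucleus separately. Blood formation depends on this route in a well known way, since inherited defects of ribosome production cause anaemia that mainly affects the red cell lineage.

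The values are log2 signals centred on the median array of each probe set, so 0 is that gene's middle array and levels cannot be compared between genes. A gene is called where its adjusted p is under 0.05 by limma (a linear model with moderated variances, Benjamini-Hochberg adjustment over all 18193 genes). The RNA of the sort markers was read first, to set it beside the gates. Cd34 and Cd27 were higher in the populations sorted with CD27 than in those sorted without it, by 7.63 (SE 0.50, adjusted p = 1.9e-06 by limma) and 6.29 log2 (SE 0.17, adjusted p = 5.5e-09), while Kit, the gene of CD117, differed by -0.01 (SE 0.20). Fcgr3, a gene of CD16/32, differed by 6.75 log2 (SE 0.43, adjusted p = 1.5e-06). Within the CD16/32- gate of the CMP its RNA was not even, since CD27+ CMP exceeded CD27- CMP by 4.71 log2 (adjusted p = 0.00034) and differed from GMP by -4.95 (adjusted p = 0.0015). CD27- CMP were sorted with CD34, yet their Cd34 difference from MEP, 1.69 log2 (SE 0.70), did not pass (adjusted p = 0.78 by limma).

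Promoter sequence shows what DNA the members have in front of them. RefSeq promoter windows (GRCm38.p6, 250 bases before to 50 bases after the gene start) were available for 26 of the 32 genes, and Bop1, Rrp12, Rrs1, Myc, Npm1 and Fbl had no entry. The E-box CACGTG, which reads the same on both strands, stood in the windows of 7 of the 26, or 26.9%. Over all 32851 windows of that length 7.15% held it, and 10.23% of the 14452 measured genes with a window did. Of the 7, Nop2 alone held it before the start. The 100 bases before the start are shown for the 4 members with a window whose population means were spread most widely (Odc1, Rrp9, Bysl and Ddx21), and for Nop2. Each is written 5′ to 3′ on the gene's strand, with capitals for the E-box, for CCGGAAG (the core bound by ETS factors) and for CCAAT, each searched on both strands.
Odc1, chr12:17544773-17544872, plus strand: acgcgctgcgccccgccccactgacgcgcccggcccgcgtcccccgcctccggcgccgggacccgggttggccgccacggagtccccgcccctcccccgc
Rrp9, chr9:106477209-106477308, plus strand: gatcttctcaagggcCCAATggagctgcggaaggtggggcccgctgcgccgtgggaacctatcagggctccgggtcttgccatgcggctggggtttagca
Bysl, chr17:47611493-47611592, minus strand: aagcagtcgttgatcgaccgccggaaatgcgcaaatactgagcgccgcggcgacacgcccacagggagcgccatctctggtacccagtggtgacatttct
Ddx21, chr10:62602299-62602398, minus strand: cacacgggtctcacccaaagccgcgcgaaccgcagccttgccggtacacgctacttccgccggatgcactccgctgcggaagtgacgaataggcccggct
Nop2, chr6:125131783-125131882, plus strand: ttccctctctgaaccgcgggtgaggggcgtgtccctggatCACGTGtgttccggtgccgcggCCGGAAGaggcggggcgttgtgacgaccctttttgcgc

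The other 6 genes with an E-box held it in the 50 bases after the start, and the site is shown with its flanks, the E-box in capitals, to let the flanking bases be compared.
Grwd1, chr7:45830741-45830764, minus strand: ccggagtcgCACGTGtgaaaccgg
Wdr43, chr17:71616223-71616246, plus strand: ccgggcgaaCACGTGgctgccgcg
Tsr1, chr11:74898095-74898118, plus strand: cttggtgcaCACGTGgactgcaga
Pes1, chr11:3963968-3963991, plus strand: taggcagggCACGTGcgggaggaa
Mybbp1a, chr11:72441353-72441376, plus strand: ctgtcttctgagccCACGTGtttg
Utp20, chr10:88826765-88826788, minus strand: ggcactaactaCACGTGaggaaaa

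These letters are a description of the window and not a measured binding site. The variant CACGCG was in 34.6% of the 26 windows, against 9.27% of all windows and 16.17% of the measured genes. CCGGAAG was in 30.8%, against 8.86% and 14.98%. CCAAT was in 26.9%, against 37.41% and 42.0%, and TATAAA in 7.7%, against 13.62% and 11.5%, each counted on both strands.

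Ribosome biogenesis genes were lower in the populations sorted with CD27 than in those sorted without it. When CD27+ CMP and GMP were set together against CD27- CMP and MEP, 18 of 32 members were lower and 0 higher. Among all genes 16.2% were called lower in that comparison and 15.1% higher. These shares include genes that hardly varied. Among the 10722 genes with a range of at least 0.5 log2, 5966 were called in either direction. With that filter 21 members were called, all lower. Bop1, Nhp2 and Pes1 lost the call under 6, 10 and 7 other settings (adjusted p up to 0.091). The other 15 kept it in each setting that gave a value per gene. The 18 differences ran from -1.52 for Rrp9 to -0.41 log2 for Nhp2, and 4 of them were at least 1 log2 in size. The median over all 32 was -0.52 log2, against -0.03 over all genes. The comparison asks what goes with the surface marker that splits the CMP gate, over 6 arrays on each side.

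**Figure D1:**
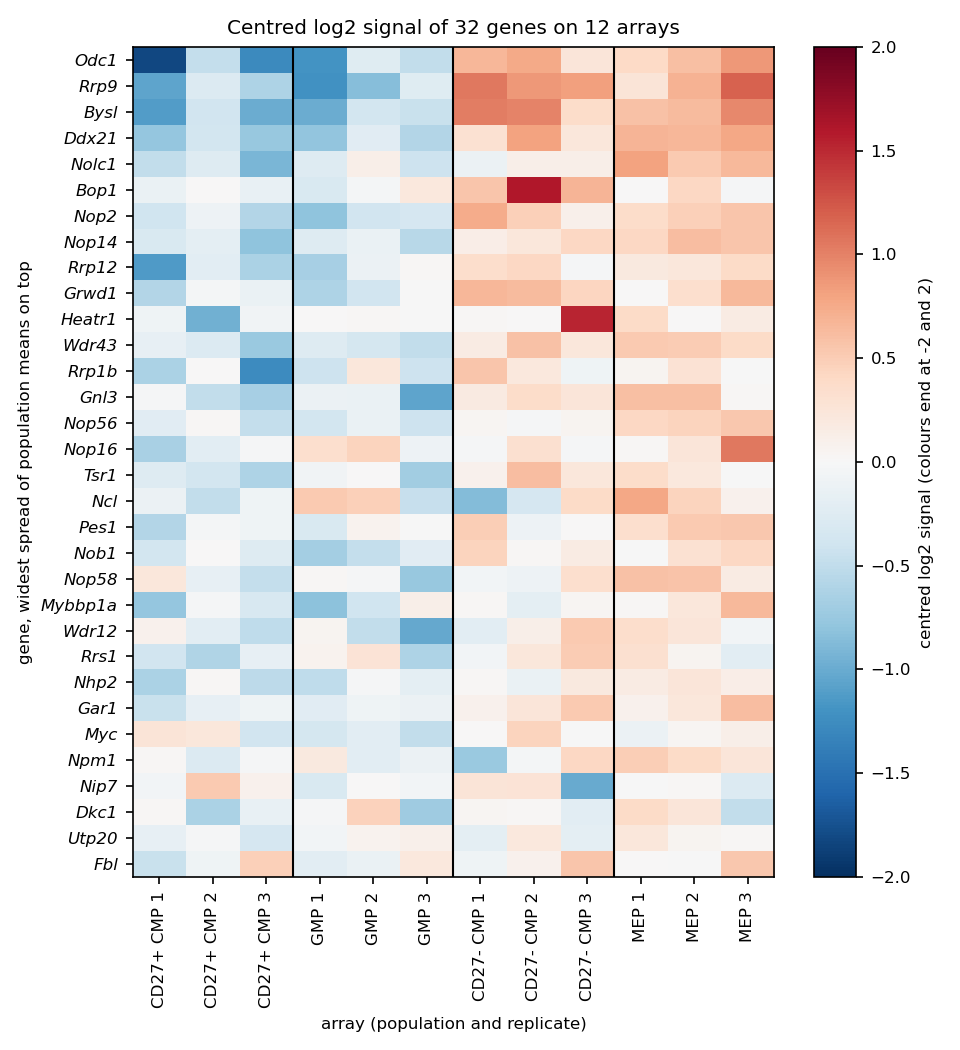
Centred log2 signal (colour, from -2 to 2) of the 32 genes, in rows, on the 12 arrays, in columns by population and replicate. The upper rows are blue in CD27+ CMP and GMP and red in CD27- CMP and MEP, whereas rows such as Myc, Npm1, Dkc1 and Fbl show no such split, and 1 CD27- CMP array stands out for Heatr1 (1.52) and for Nip7 (-1.01).

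Myc itself was not called. Its signal read 0.25, 0.23 and -0.38 in CD27+ CMP and -0.35, -0.21 and -0.49 in GMP, against 0.01, 0.45 and -0.01 in CD27- CMP and -0.11, 0.04 and 0.12 in MEP. The GMP arrays were the lowest as a group and overlapped with the third CD27+ CMP array. Myc did not pass in any of the 6 pairs of populations. Between the populations sorted with and without CD27 its difference was -0.24 log2, with a 95% interval from -0.54 to 0.05 (adjusted p = 0.19 by limma). That interval holds the members' median of -0.52, so a difference of that size is not excluded. Its largest difference lay between GMP and CD27- CMP, -0.50 log2 (SE 0.18, unadjusted p = 0.024, adjusted p = 0.091 by limma). A single probe set measured Myc.

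Odc1 encodes ornithine decarboxylase, the rate-limiting enzyme of polyamine synthesis and a textbook target of Myc. It read -1.82, -0.47 and -1.27 in CD27+ CMP and -1.19, -0.24 and -0.49 in GMP, against 0.66, 0.75 and 0.24 in CD27- CMP and 0.40, 0.60 and 0.87 in MEP. All 6 arrays sorted with CD27 lay below all 6 sorted without it, as for 10 of the 32 members and for 10.1% of all genes. The difference was -1.50 log2 (SE 0.25, adjusted p = 0.0012 by limma), a 2.82-fold lower signal. Its other 2 probe sets read -0.69 and -0.80 log2, so the size depends on the probe set while both were also called lower among all probe sets.

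**Figure D2:**
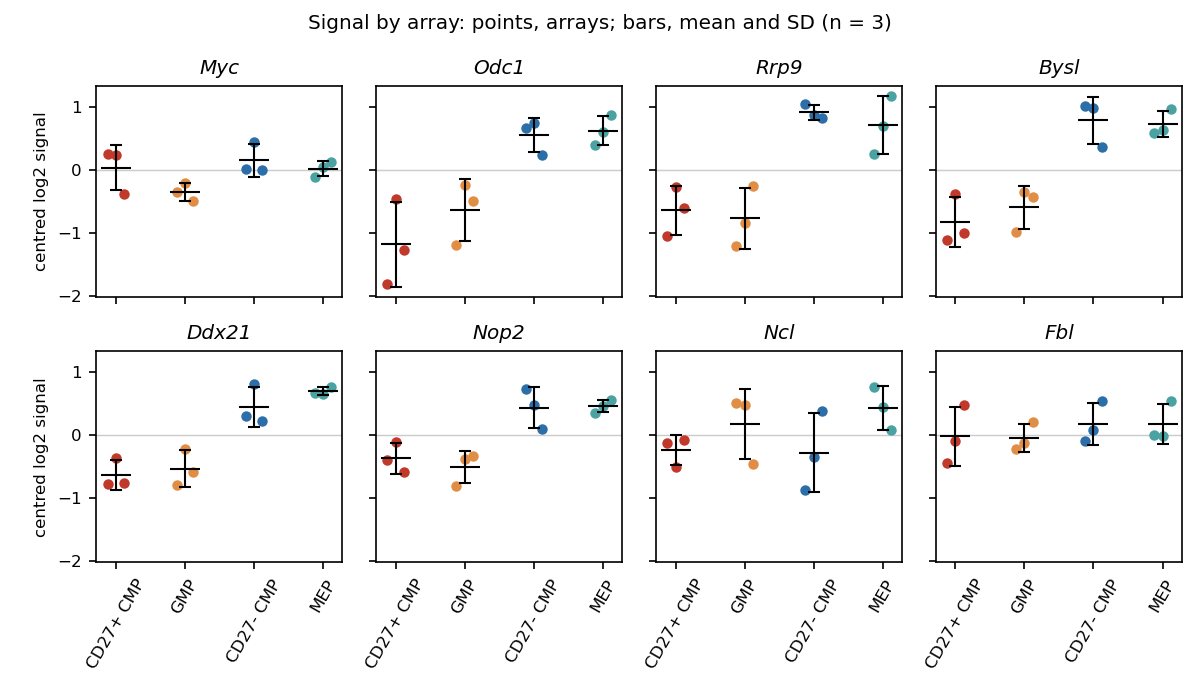
Centred log2 signal of 8 genes on each array (points, coloured by population) with the mean and SD of the 3 arrays of a population (bars). Odc1, Rrp9, Bysl, Ddx21 and Nop2 lie below 0 in every CD27+ CMP and GMP array and above 0 in every CD27- CMP and MEP array, while the populations overlap for Myc, Ncl and Fbl.

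All 6 genes of abundant nucleolar proteins read lower in the populations sorted with CD27, from -1.16 to -0.11 log2, and 3 were called. Those were Ddx21, Nolc1 and Gnl3. Ncl, Npm1 and Mybbp1a did not pass, although another Mybbp1a probe set was called lower. Ddx21 encodes an RNA helicase of the nucleolus. It read -0.78, -0.36 and -0.76 in CD27+ CMP and -0.79, -0.22 and -0.58 in GMP, against 0.31, 0.81 and 0.22 in CD27- CMP and 0.68, 0.66 and 0.77 in MEP, with no overlap between the sides. The difference was -1.16 log2 (SE 0.13, adjusted p = 0.00011 by limma), and a second probe set of Ddx21 read -0.41 and was not called. Nolc1 encodes a chaperone of small nucleolar ribonucleoproteins, also called Nopp140. Its signal was -0.49, -0.26 and -0.91 in CD27+ CMP and -0.26, 0.11 and -0.41 in GMP, against -0.11, 0.11 and 0.12 in CD27- CMP and 0.81, 0.52 and 0.65 in MEP. The MEP arrays were above all others, and 1 GMP array equalled the middle CD27- CMP array. The difference between the sides was -0.72 log2 (SE 0.13, adjusted p = 0.0019 by limma). Gnl3, the gene of nucleostemin, was lower by -0.75 log2 (SE 0.20, adjusted p = 0.016).

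For nucleolin and nucleophosmin, the most abundant nucleolar proteins, the RNA signals of the arrays overlapped between the sides. Ncl read -0.12, -0.50 and -0.08 in CD27+ CMP and 0.52, 0.48 and -0.46 in GMP, against -0.87, -0.34 and 0.38 in CD27- CMP and 0.77, 0.45 and 0.08 in MEP. The CD27- CMP arrays covered the widest range and overlapped with every other population. The difference of Ncl was -0.11 log2 with a 95% interval from -0.68 to 0.47, and its 5 probe sets ran from -0.37 to -0.11 without a call. Npm1 read 0.03, -0.27 and -0.03 in CD27+ CMP and 0.20, -0.21 and -0.12 in GMP, against -0.75, -0.04 and 0.42 in CD27- CMP and 0.49, 0.38 and 0.24 in MEP. Its difference was -0.19 log2 (95% interval -0.60 to 0.22). A difference of the size seen in Nop56, -0.51 log2, lies within both intervals.

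Of 4 members from box C/D ribonucleoproteins 2, Rrp9 and Nop56, were lower. Most of these particles place methyl groups on ribosomal RNA. Rrp9, however, binds the U3 small nucleolar RNA, which guides early cuts of the precursor. Its signal was -1.05, -0.27 and -0.61 in CD27+ CMP and -1.21, -0.85 and -0.25 in GMP, against 1.05, 0.87 and 0.82 in CD27- CMP and 0.25, 0.70 and 1.18 in MEP. No array of one side overlapped with the other, and the difference was -1.52 log2 (SE 0.21, adjusted p = 0.00043 by limma), or 2.86-fold. Nop56, a core protein of the box C/D particle, was lower by -0.51 log2 (SE 0.08, adjusted p = 0.0011). Fbl encodes fibrillarin, the methyltransferase of the same particle, and read -0.44, -0.09 and 0.48 in CD27+ CMP and -0.21, -0.13 and 0.21 in GMP, against -0.09, 0.09 and 0.55 in CD27- CMP and 0.01, -0.01 and 0.54 in MEP. The populations of Fbl overlapped throughout, with a difference of -0.21 log2 (95% interval -0.64 to 0.21). Nop58, the partner of Nop56, had -0.45 log2 (adjusted p = 0.094 by limma). The box H/ACA particle, which turns uridine into pseudouridine, held lower Gar1 (-0.48 log2, adjusted p = 0.008) and Nhp2 (-0.41, adjusted p = 0.034), and its enzyme gene Dkc1 stood at -0.17 without a call.

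Of 8 small subunit factors 6 were lower, where 16.2% of all genes were lower. The shares of such small groups of members were not compared by a test. In the further lists below, 61.0% of small subunit and 65.2% of large subunit genes were lower. Bysl, the gene of bystin, a factor of small subunit maturation, had -1.12, -0.38 and -1.0 in CD27+ CMP and -0.99, -0.36 and -0.44 in GMP, against 1.02, 0.99 and 0.36 in CD27- CMP and 0.58, 0.64 and 0.96 in MEP. The sides did not overlap, the difference was -1.48 log2 (SE 0.18, adjusted p = 0.00018 by limma), and the second Bysl probe set read -1.14. Nop14, a processome protein, read -0.31, -0.19 and -0.80 in CD27+ CMP and -0.26, -0.14 and -0.55 in GMP, against 0.14, 0.22 and 0.41 in CD27- CMP and 0.42, 0.61 and 0.55 in MEP. Wdr43, whose yeast counterpart belongs to the processome proteins that join during transcription, read -0.17, -0.27 and -0.74 in CD27+ CMP and -0.26, -0.35 and -0.49 in GMP, against 0.17, 0.59 and 0.23 in CD27- CMP and 0.52, 0.50 and 0.39 in MEP. Both genes kept the sides apart, with differences of -0.77 (SE 0.12, adjusted p = 0.00063 by limma) and -0.78 log2 (SE 0.11, adjusted p = 0.00044). Rrp12, which in yeast takes part in the export of subunits, read -1.14, -0.21 and -0.63 in CD27+ CMP and -0.67, -0.11 and 0.02 in GMP, against 0.35, 0.41 and -0.02 in CD27- CMP and 0.20, 0.23 and 0.38 in MEP. Its sides touched in 1 array each, and the difference was -0.71 log2 (SE 0.18, adjusted p = 0.012 by limma).

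Tsr1 and Nob1 act late on the small subunit, Nob1 as the enzyme that makes the final cut of its RNA. They were lower by -0.58 (adjusted p = 0.015 by limma) and -0.56 log2 (adjusted p = 0.005). Heatr1, whose yeast counterpart also joins the processome during transcription, did not pass (-0.53 log2, SE 0.28, adjusted p = 0.18). It read -0.08, -0.96 and -0.07 in CD27+ CMP and 0.00, 0.02 and -0.01 in GMP, against 0.02, 0.00 and 1.52 in CD27- CMP and 0.38, 0.00 and 0.16 in MEP. A single CD27- CMP array and a single CD27+ CMP array hold its spread. Utp20, another processome protein, differed by -0.09 log2 (95% interval -0.29 to 0.10).

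Large subunit factors were lower for 4 of 9, where 16.2% of all genes were lower. Nop2 encodes an RNA methyltransferase of the large subunit. Its signal was -0.40, -0.10 and -0.59 in CD27+ CMP and -0.80, -0.38 and -0.33 in GMP, against 0.74, 0.48 and 0.10 in CD27- CMP and 0.36, 0.47 and 0.56 in MEP. The sides did not overlap and the difference was -0.89 log2 (SE 0.13, adjusted p = 0.00067 by limma). Grwd1, whose yeast counterpart is a chaperone of a ribosomal protein, read -0.58, -0.04 and -0.13 in CD27+ CMP and -0.61, -0.38 and -0.01 in GMP, against 0.67, 0.63 and 0.43 in CD27- CMP and 0.01, 0.34 and 0.65 in MEP. The sides came close but did not overlap, and the difference was -0.74 log2 (SE 0.15, adjusted p = 0.0035 by limma).

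Bop1, Pes1 and Wdr12 form the PeBoW complex of large subunit assembly. Bop1 read -0.14, 0.00 and -0.15 in CD27+ CMP and -0.30, -0.04 and 0.21 in GMP, against 0.56, 1.60 and 0.68 in CD27- CMP and 0.00, 0.42 and -0.03 in MEP. The CD27- CMP arrays were above all others on this probe set. The difference between the sides was -0.61 log2 (SE 0.18, adjusted p = 0.031 by limma), and the second Bop1 probe set read -0.51 without a call. Pes1 was lower by -0.46 log2 (SE 0.14, adjusted p = 0.029). Wdr12 had -0.51 log2 and did not pass (adjusted p = 0.093), although another of its probe sets, at -0.66, was called. Rrp1b, of a nucleolar family of large subunit factors, read -0.64, 0.01 and -1.26 in CD27+ CMP and -0.42, 0.23 and -0.42 in GMP, against 0.55, 0.21 and -0.08 in CD27- CMP and 0.06, 0.29 and -0.01 in MEP, with overlapping sides and no call (-0.58 log2, SE 0.22, adjusted p = 0.080). The assembly factor genes Rrs1 (-0.38), Nop16 (-0.30) and Nip7 (0.16) did not pass either.

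**Figure D3:**
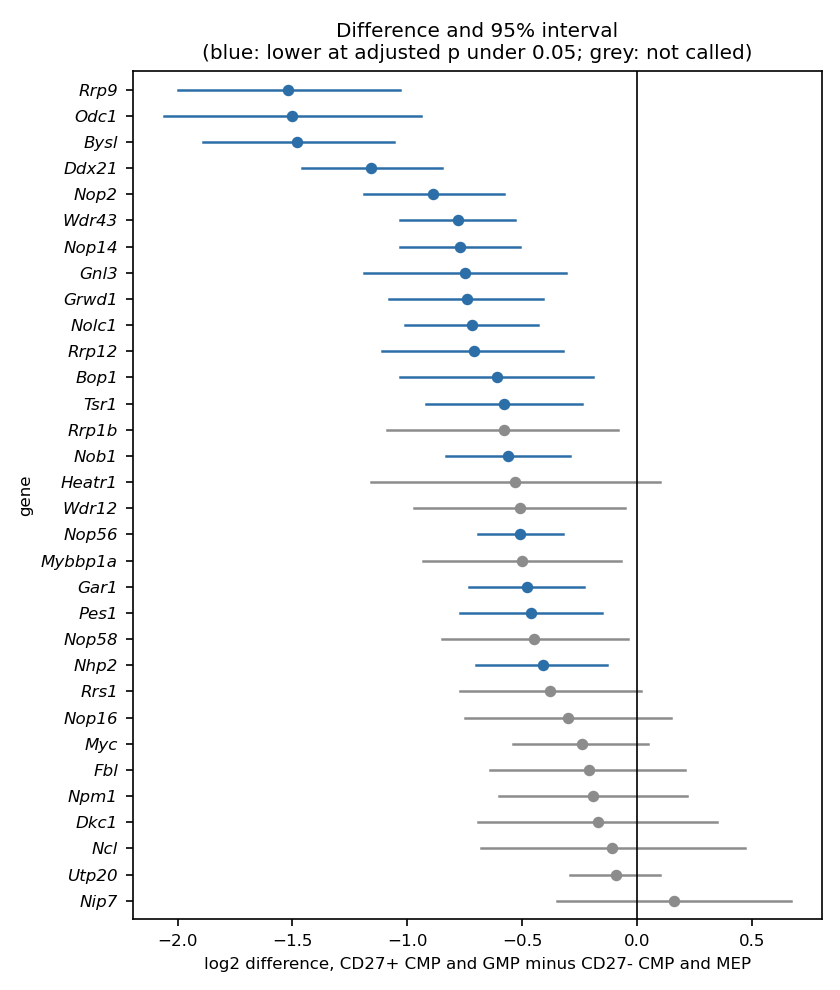
Log2 difference (points) with its 95% interval (lines) for each of the 32 genes, as the mean of CD27+ CMP and GMP minus the mean of CD27- CMP and MEP. The 18 called genes, in blue, run from -1.52 to -0.41, the 14 others, in grey, run from -0.58 to 0.16, and Nip7 alone lies above 0.

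Nearly all probe sets of the members ran in the same direction. Of the 64 probe sets 62 read lower in the populations sorted with CD27 and 2 read higher. Of all 18193 genes 12770 also read lower there, by any amount. Several probe sets belong to the same gene for 22 members, so they are not independent. Of the 64, 30 were called lower and 0 higher, where 11.2% of all 45037 probe sets were called lower and 10.3% higher. At least 1 probe set was called lower for 22 members, namely the 18 and also Mybbp1a, Nip7, Nop16 and Wdr12. For Nip7 the probe sets went apart, at -0.56 log2 with a call and at 0.16 without one.

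Within the CMP gate, CD27+ CMP had lower signal than CD27- CMP for 13 of 32 members and higher signal for 0, where 10.3% of all genes were lower and 12.1% higher. Odc1 differed by -1.73 log2 (SE 0.35, adjusted p = 0.0057 by limma), Bysl by -1.63 (SE 0.26, adjusted p = 0.0014), Rrp9 by -1.56 (SE 0.30, adjusted p = 0.0047), Ddx21 by -1.08 (SE 0.19, adjusted p = 0.0025) and Bop1 by -1.05 (SE 0.26, adjusted p = 0.017). Rrp12, Grwd1, Nop2, Wdr43, Tsr1, Nop14, Nolc1 and Gar1 followed, from -0.91 to -0.51. The median over all 32 was -0.55 log2, against -0.03 over all genes. The count rests in part on single arrays, since 7 members were called without CD27+ CMP replicate 1 or without CD27+ CMP replicate 3, and 8 without CD27- CMP replicate 2. Bysl, Ddx21, Nop14, Odc1, Rrp9 and Wdr43 stayed called in each alternative that gave a value per gene, and the other 7 lost the call in at least 1, with adjusted p up to 0.15.

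GMP had lower signal than MEP for 11 of 32 members and higher signal for 0, where 11.2% of all genes were lower and 11.5% higher. Rrp9 differed by -1.48 log2 (SE 0.30, adjusted p = 0.006 by limma), Bysl by -1.33 (SE 0.26, adjusted p = 0.0045), Odc1 by -1.26 (SE 0.35, adjusted p = 0.029), Ddx21 by -1.23 (SE 0.19, adjusted p = 0.001) and Nop2 by -0.97 (SE 0.19, adjusted p = 0.0046). The call of Odc1 was lost without GMP replicate 1 or 3 and without MEP replicate 2 or 3, with adjusted p up to 0.11. The others were Nop14, Wdr43, Nolc1, Nop56, Nob1 and Grwd1, from -0.85 to -0.67. Nob1 lost its call without GMP replicate 1 and without MEP replicate 2 or 3 (adjusted p up to 0.056), and Grwd1, at adjusted p = 0.049, lost its call in most alternatives (up to 0.17). The median over all 32 was -0.54 against -0.04 over all genes. Same-numbered GMP and MEP arrays deviated together, and with the replicate number as a block Gar1 (-0.44, adjusted p = 0.0086 by limma) and Gnl3 (-0.84, adjusted p = 0.019) were also called.

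The CMP and the GMP against MEP comparisons share no array, though they share the fitted estimate of spread. Members called in both numbered 9, which is 69.2% of the CMP calls and 81.8% of the GMP against MEP calls: Bysl, Ddx21, Grwd1, Nolc1, Nop14, Nop2, Odc1, Rrp9 and Wdr43. Over all genes 8% were lower in both, or 78% of the genes lower in CMP and 71.4% of those lower in GMP against MEP, so the members' calls recurred at shares close to those of all genes. The test of the difference between the 2 effects called 0 of 32 members by limma, against 2.07% of all genes, with 2 members at an unadjusted p under 0.05. Those were Nop56, whose effect was -0.24 log2 in CMP and -0.77 in GMP against MEP (difference 0.52, 95% interval 0.15 to 0.90, adjusted p = 0.25), and Bop1, with -1.05 and -0.17 (difference -0.87, 95% interval -1.71 to -0.04, adjusted p = 0.52).

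Populations on the same side of the CD27 sort gave no call. CD27+ CMP against GMP called 0 of 32 members by limma, with 0 at an unadjusted p under 0.05, while 5.21% of all genes were called. The members' differences ran from -0.55 (Odc1) to 0.38 log2 (Myc), with a median of -0.10. CD27- CMP against MEP called 0 of 32, with 3 at an unadjusted p under 0.05 (Nop56, Nolc1 and Bop1), but in that comparison only 0.033% of all genes were called. Nop56 read lower in CD27- CMP than in MEP by -0.44 log2 (adjusted p = 0.43 by limma) and Nolc1 by -0.62 (adjusted p = 0.51), whereas Bop1 read higher by 0.82 (adjusted p = 0.57). The pairs across the gates gave 12 lower members in CD27+ CMP against MEP (12.5% of all genes were lower and 11.9% higher) and 10 in GMP against CD27- CMP (10.1% lower and 12.1% higher), with 0 members higher in each. Without GMP replicate 1 the second count was 6. They reuse the populations of the comparisons above. Over all 4 populations a joint test called 14 of 32 members, and 9 without GMP replicate 2, against 26.7% of all genes. Among the 10722 genes with a range of at least 0.5 log2 it called 5318, and 15 of the 32 members. The members' share was thus not above that of the genes that varied.

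By population mean, 21 members were highest in MEP, 10 in CD27- CMP, 1 in CD27+ CMP (Nip7) and 0 in GMP. The lowest mean was in CD27+ CMP for 19, in GMP for 10 and in CD27- CMP for 3. For 26 of 32 members both means of the populations sorted without CD27 lay above both of those sorted with it, which also held for 56.1% of all genes. The median over the 32 genes was between -0.42 and -0.12 on the 6 CD27+ CMP and GMP arrays, against 0.09 to 0.38 on the 6 CD27- CMP and MEP arrays, while the median of all genes stayed between -0.03 and 0.05 on the 12.

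Further genes of the pathway, from lists that hold no member, were lower as well. The 5 lists cover RNA polymerase I, other factors of the small and of the large subunit, other partners of the small nucleolar particles and the RNA exosome, which trims precursor RNA. Of their 120 measured genes 74 were lower in the populations sorted with CD27 (61.7%, against 16.2% of all genes) and 0 were higher. The 16.2% again includes genes that hardly varied. For the small subunit 25 of 41 were lower, with a median of -0.66 log2, and the largest differences were those of the helicase gene Dhx37 (-1.86), Wdr75 (-1.21) and the RNA acetyltransferase gene Nat10 (-1.09). For the large subunit 30 of 46 were lower, with a median of -0.54, led by Noc3l (-1.23), Pelp1 (-1.18) and the export adaptor gene Nmd3 (-0.98). RNA polymerase I and its factors had 7 of 12 lower and a median of -0.54. Among these were Taf1c, part of the promoter selectivity factor, at -1.52, the second largest subunit gene Polr1b at -1.05 and Polr1c at -0.88 log2. The exosome had 8 of 13 lower (median -0.45, Exosc4 at -1.34, the nuclease gene Dis3 at -0.81 and Exosc2 at -0.67), and the particle partners had 4 of 8 (median -0.27, Shq1 at -0.80, Znhit3 at -0.76 and Naf1 at -0.28).

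**Figure D4:**
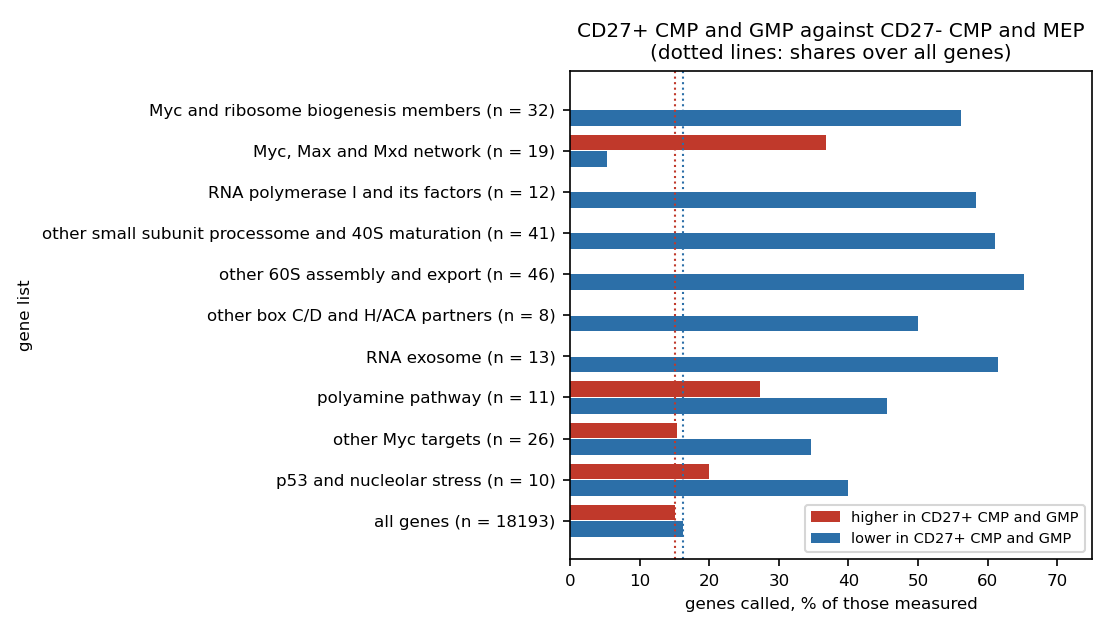
Share of the measured genes of each list (n in brackets) called higher (red) or lower (blue) in CD27+ CMP and GMP against CD27- CMP and MEP, with the shares over all genes as dotted lines. The members and the 5 ribosome lists have blue bars of 50% to 65.2% and no red bar, and the Myc, Max and Mxd network has 36.8% higher and 5.3% lower.

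Among the partners and antagonists of Myc most calls were higher. Of 19 genes of the Myc, Max and Mxd network 7 were higher in the populations sorted with CD27 and 1 was lower, with a median of 0.15 log2. These are 36.8% higher and 5.3% lower, against 15.1% and 16.2% of all genes. Mxd4, which encodes a repressor that competes with Myc for Max, was higher by 1.30 log2 (SE 0.18, adjusted p = 0.00038 by limma). Mlxip, a related factor that pairs with Mlx, was higher by 1.29 (SE 0.19, adjusted p = 0.00057), and Usp28, a deubiquitinase known to stabilise Myc protein, by 1.27 (SE 0.12, adjusted p = 2e-05). Ruvbl1, a helicase-like cofactor that also serves in particle assembly, was the one lower gene (-0.52, SE 0.10, adjusted p = 0.0036). Max itself differed by 0.03 log2 (SE 0.12, adjusted p = 0.85). Differences within a side are averaged out in this comparison. Between CD27+ CMP and GMP 3 of the 19 were called, where 5.21% of all genes were called. Mycn was higher in CD27+ CMP by 3.05 log2 (adjusted p = 0.0032 by limma) and Mycl by 0.82 (adjusted p = 6e-06). Mlx differed by -1.59 (adjusted p = 0.0037). Mycn also read 2.25 log2 higher in CD27- CMP than in MEP, without a call (adjusted p = 0.20). The arrays measured RNA, not Myc protein.

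Among 26 further textbook targets of Myc 9 were lower and 4 higher, with a median of -0.25 log2. The 34.6% lower stood against 16.2% of all genes, while the 15.4% higher was close to the 15.1% of all genes. Phb2, of the mitochondrial prohibitins, was lower by -1.81 (SE 0.38, adjusted p = 0.0053 by limma), the transferrin receptor gene Tfrc by -1.40 (adjusted p = 0.026) and the purine synthesis gene Ppat by -0.93 (adjusted p = 0.00035). Higher were the folate enzyme gene Shmt1 (2.28, adjusted p = 4.3e-05), the cyclin gene Ccnd2 (1.21, adjusted p = 0.00053) and Nme2 (0.54, adjusted p = 6.7e-05). Tfrc also takes up iron for haemoglobin in erythroid cells.

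Lineage genes moved with the ribosome genes and by far more. Of 12 erythroid marker genes 9 were lower in the populations sorted with CD27, led by Rhd (-7.99), Tspo2 (-7.93) and Rhag (-7.68 log2). The list medians were -4.68 to -2.82 on the CD27+ CMP and GMP arrays against 3.00 to 3.30 on the CD27- CMP and MEP arrays. Slc4a1 (-0.46), Hba-a1 (-0.02) and Alas2 (-0.01), genes of later red cells, did not pass. All 10 granulocyte-monocyte markers were higher, with array medians of 2.76 to 3.54 against -4.53 to -2.71, led by Ly86 (8.29), Irf8 (7.98) and Cebpa (7.50). Of 5 megakaryocyte markers Gp5 (-4.72), Vwf (-2.04) and Pf4 (-1.39) were lower. The part of these lineage differences in the ribosome result was not tested. Of 5 markers of mature B cells Cd79b (5.55) was higher and Ms4a1 (-0.19) lower. Of 8 markers of mature T and NK cells Nkg7 (4.83) and Klrd1 (1.00) were higher, and of 8 markers of stromal and endothelial cells Pecam1 (4.70) and Pdgfrb (3.63). The array medians of these 3 lists stayed between -0.05 and 0.05. Their genes' differences spanned -0.19 to 5.55, -0.1 to 4.83 and -0.59 to 4.70 log2. Pax5, Cd3e and Col1a1, picked 1 per list after their values were seen, differed by -0.04, 0.00 and 0.00 log2. Because the deposited values are centred, a gene near 0 throughout may be silent or may be present at 1 even level.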

How the data were processed

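The authors deposited log2 values of 45037 probe sets on 12 arrays, which per the submitters' processing notes come from GCRMA, a background correction with quantile normalization. Its version is not stated in the sources used, nor is the logarithm's base, which GCRMA sets to 2. Each probe set's median over the 12 arrays lies within 5e-07 of 0, so the deposited values are centred and absolute signal is lost. GCRMA also brings the arrays to a common distribution, so a change of total RNA per cell is not seen.

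Of the probe sets 34945 carried 1 symbol, 932 several and 9160 none. Each of the 18193 genes was read from its most variable probe set. The test was limma (version 3.58.1, R 4.3.3), two-sided, fitting the 4 population means on all 12 arrays, and the fit was tested on simulated data. Alternatives were quantile normalization, a filter on genes with a range under 0.5 log2, the mean of a gene's probe sets, array weights, the replicate number as a block, each array left out, and, chosen after seeing the data, each probe set on its own. The number of arrays limits the precision, with a median SE of 0.178 log2 over the members for 6 against 6 arrays.

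Replicate numbers come from the sample titles. Deviations of same-numbered arrays correlated over 0.1 for all 3 numbers in 2 of 6 population pairs, CD27+ CMP with GMP (0.15 to 0.54) and GMP with MEP (0.26 to 0.60).

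Members and gene lists were chosen with earlier results of these data known. Arrays are given in full for Myc, the 13 members with the widest population means, Ncl, Npm1 and Fbl. In other lists up to 3 called genes per direction with the largest difference were named, with Max and the sort markers. The uncalled markers Slc4a1, Hba-a1, Alas2, Pax5, Cd3e and Col1a1, and also Mycn, Mycl and Mlx, were chosen after their values were seen. The E-box sites after the gene start and the motifs beside CACGTG were chosen after the sequences were seen.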

Additional observations from a re-analysis of the deposited data

Results flagged for a closer look

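The effect of CD27+ against CD27- CMP differed from that of GMP against MEP in 377 of 18193 genes, or 2.07%. These calls come from the test of the difference itself (limma, adjusted over all genes), and 0 of 32 members were among them. Of the listed genes outside the ribosome set 5 are described here, and 1 more, in the Myc, Max and Mxd network, was also called. Fcgr3, a gene of CD16/32, was higher by 4.71 log2 in CD27+ against CD27- CMP and by 8.79 in GMP against MEP, a difference of -4.08 (SE 0.85, adjusted p = 0.049). Nkg7, a granule gene of NK and T cells, was higher by 3.19 and by 6.47 in those comparisons, a difference of -3.27 (SE 0.39, adjusted p = 0.0038). Klrd1, which encodes the NK receptor chain CD94, was higher by 2.02 in CD27+ against CD27- CMP and read -0.02 in GMP against MEP, a difference of 2.04 (SE 0.07, adjusted p = 1.5e-06). For Azin2 the difference was 0.97 (SE 0.19, adjusted p = 0.037), with 1.07 in the CMP comparison and 0.10 without a call in GMP against MEP. Pecam1, the adhesion molecule CD31, was higher by 5.0 and by 4.41, a difference of 0.59 (SE 0.12, adjusted p = 0.038).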

How the results depend on the processing

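Over 18 alternatives, 12 of which left out 1 array, no called member changed direction. The count for both populations sorted with CD27 against both without it stayed within 1.5 times its value of 18: 15 under quantile normalization, 21 with the range filter, 21 with the mean of probe sets, 21 with array weights, 20 with the replicate block, and 15 to 19 with an array left out. With the range filter 5966 of the 10722 genes left were called in either direction there, against 5682 of 18193 without it. For CD27+ against CD27- CMP the filter gave 4453 of the 10722 genes in either direction and 14 members, all lower. Calls were kept in each alternative that gave a value per gene for 15 of the 18 members. Bop1, Nhp2 and Pes1 lost theirs in 6, 10 and 7 alternatives, including quantile normalization, with adjusted p up to 0.091, 0.080 and 0.070. With an array left out, counts ran from 7 to 14 for CD27+ against CD27- CMP, 8 to 12 for GMP against MEP, 9 to 14 for CD27+ CMP against MEP, 6 to 11 for GMP against CD27- CMP (6 without GMP replicate 1) and 9 to 14 for the joint test (9 without GMP replicate 2). They stayed at 0 for the remaining comparisons. Array weights, whose estimation did not fully converge, gave 19 members in GMP against CD27- CMP in place of 10. Calls over all 18193 genes rose there too, from 4051 to 9965, and from 5682 to 10616 with both populations on a side. GMP replicate 1 and CD27- CMP replicate 2 had weights of 6.47 and 6.52, against 0.20 to 1.83 for the other arrays. In GMP against CD27- CMP with these weights Ncl was called higher (0.80 log2) and Nip7 was called lower at -0.48, in place of 0.04 without a call. The cause was not tested. The replicate block gave 14, 13 and 13 calls for CD27+ against CD27- CMP, GMP against MEP and GMP against CD27- CMP. Of 12 arrays 9 correlated best with their own number, on average over the other populations. That average includes the 2 population pairs whose same-numbered arrays correlated, so it cannot show sharing beyond them. For CD27- CMP, however, same-numbered arrays correlated at only -0.29 to 0.16 with those of the other populations. Of 153 counts of the other lists 147 stayed within 1.5 times, and the particle partners ran from 2 to 6. Low or flat probe sets cannot be told apart in centred values.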

Other observations

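Genes of the p53 response, which reacts to faulty ribosome assembly among other stresses, went both ways. Of 10 measured genes 4 were lower in CD27+ CMP and GMP than in CD27- CMP and MEP and 2 were higher, against 16.2% and 15.1% of all genes. Zmat3 was lower by -2.51 log2 (SE 0.21, adjusted p = 9.8e-06 by limma), Phlda3 by -1.63 (SE 0.14, adjusted p = 1.3e-05) and the cyclin gene Ccng1 by -1.41 (SE 0.13, adjusted p = 2e-05). In the other direction stood Cdkn1a, which encodes the cell cycle inhibitor p21, at 3.39 log2 (SE 0.31, adjusted p = 2.1e-05), and the cell death gene Pmaip1 at 1.07 (SE 0.35, adjusted p = 0.044). Genes usually listed together as p53 targets were thus called in opposite directions here.

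The polyamine genes around Odc1 were called in both directions, with 5 of 11 lower and 3 higher, or 45.5% and 27.3% against 16.2% and 15.1% of all genes. Smox, which oxidises spermine, was lower by -1.47 log2 (SE 0.12, adjusted p = 1.1e-05 by limma), Dhps by -0.84 (adjusted p = 0.0041) and Dohh by -0.65 (adjusted p = 0.019). Dhps and Dohh together make hypusine, the modified residue of the translation factor eIF5A. Sat1, which starts polyamine breakdown, was higher by 0.93 (adjusted p = 0.0063), as was the antizyme inhibitor gene Azin1 (0.62, adjusted p = 0.039). Its relative Azin2 was higher by 0.59 (adjusted p = 0.0011), with 1.07 in CD27+ against CD27- CMP (adjusted p = 0.00031) and 0.10 in GMP against MEP (adjusted p = 0.59).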
